A study of Mus musculus with 6 samples.

Results

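Cytosolic ribosomal protein genes were taken as every gene of the deposited table whose symbol starts with Rpl or Rps followed by a digit, or is Rpsa or Rplp0 to Rplp2, leaving out the Rps6k kinases. The rule found 91 of 10539 listed genes, 35 with small subunit names and 56 with large subunit names. Of these, 77 carry the plain name of a ribosomal subunit protein (31 small and 46 large) and are called canonical here. The other 14 are 7 paralogue-named genes (Rps27l, Rps27rt, Rpl3l, Rpl7l1, Rpl22l1, Rpl36al and Rpl39l), 6 genes with pseudogene-style names that the table lists as protein coding, and Rps19bp1. Rps19bp1 encodes a protein that binds Rps19 and is not itself a ribosomal subunit protein. All 91 had a mean of at least 1 FPKM (sequenced fragments scaled to gene length and library total) and were tested.

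The RNA came from lung alveolar macrophages, which clear particles from the airspace, of C57BL/6 mice. All 6 libraries overexpressed the transcription factor C/EBPβ. The 3 libraries labelled CEBPβ had no further label, and the 3 labelled CEBPβ-A followed an adenovirus carrying A20, the ubiquitin-editing brake on NF-κB encoded by Tnfaip3. No source used here gives the virus of the CEBPβ group, the way C/EBPβ was overexpressed or the animals' age. Cells without added C/EBPβ were not analysed here. Whether replicates were separate animals or cultures is not stated either, so p-values reflect spread that may be only technical.

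The cytosolic ribosome is built from a small subunit, which reads the messenger RNA, and a large subunit, which joins amino acids. Each subunit holds ribosomal RNA and a copy of most of its proteins, so cells make these proteins in matched amounts. In mammals much of that matching is done in translation. Messenger RNAs of ribosomal proteins start with a terminal oligopyrimidine (TOP) run, through which the growth kinase mTORC1 and the RNA-binding protein LARP1 control their use. In macrophages, as in other cells, these messengers are among the most abundant.

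Start regions of 6 members are shown for the sequence context of the most abundant member with an entry in each subunit, and of the paralogue pairs whose levels are compared below. RefSeq promoter windows (GRCm38.p6) were matched by symbol for 65 of the 91 members and 57 of the 77 canonical genes. Each line gives 60 bases before the annotated start and 25 bases from it on, in the direction of the gene. Capitals mark the motifs CTTTCC (a pyrimidine run, searched on the gene's strand only), CCGGAAG (bound by ETS factors such as GABP), GCCATNTT (YY1), GGGCGG (SP1) and TATAAA, the last 4 on both strands. The lines are Rps3a1 at chr3:86142644-86142728 (minus strand), Rpl19 at chr11:98026650-98026734 (plus), Rps27 at chr3:90213624-90213708 (minus), Rps27l at chr9:66946026-66946110 (plus), Rpl22 at chr4:152325666-152325750 (plus) and Rpl22l1 at chr3:28805448-28805532 (plus).
Rps3a1: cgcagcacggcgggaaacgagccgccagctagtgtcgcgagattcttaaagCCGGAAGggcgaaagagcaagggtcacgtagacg
Rpl19: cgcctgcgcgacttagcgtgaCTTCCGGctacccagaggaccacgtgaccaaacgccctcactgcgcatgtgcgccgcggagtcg
Rps27: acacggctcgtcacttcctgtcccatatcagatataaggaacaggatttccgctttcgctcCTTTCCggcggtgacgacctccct
Rps27l: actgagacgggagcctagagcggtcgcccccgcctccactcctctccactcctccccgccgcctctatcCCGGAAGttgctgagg
Rpl22: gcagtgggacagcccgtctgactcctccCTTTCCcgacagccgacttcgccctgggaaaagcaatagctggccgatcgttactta
Rpl22l1: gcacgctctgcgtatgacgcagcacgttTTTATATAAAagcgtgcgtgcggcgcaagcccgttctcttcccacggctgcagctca
In Rpl22l1 the capitals are 2 overlapping TATAAA matches, 1 on each strand. The annotated start of Rpl22l1 lies 72 bases from the start of the gene in the deposited table, that of Rps3a1 34, of Rpl22 16, of Rps27 3, and those of Rpl19 and Rps27l 0.

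Over whole windows of 300 bases (250 before the start and 50 after), CCGGAAG was present in 23 of 57 canonical windows (40.4%), against 8.86% of all 32851 windows of the table. The pyrimidine run CTTTCC was present in 21 (36.8%, against 14.1%), GGGCGG in 34 (59.6%, against 35.7%), GCCATNTT in 10 (17.5%, against 6.05%) and TATAAA in 5 (8.77%, against 13.6%). Within the 85 bases nearest the start, CTTTCC stood in 10 of 57 (17.5%, against 4.04%), CCGGAAG in 12 (21.1%, against 4.98%), GGGCGG in 18 (31.6%, against 21.6%), and GCCATNTT and TATAAA in 3 each (5.26%, against 1.81% and 4.64%). The share with TATAAA was thus below that of all windows over 300 bases and not over 85. In the windows shown, Rps27 carries this run at its start, whereas its paralogue Rps27l holds CCGGAAG there. A match describes these letters only and shows no binding.

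Facts of the whole series that touch these genes were as follows. Tnfaip3, the gene of A20, was not higher in the CEBPβ-A libraries, at 7.94, 15.5 and 7.32 FPKM in replicates 1 to 3 against 8.76, 17.7 and 19.2 in CEBPβ, so each direction below is between libraries as labelled. On the first principal component of the 9617 tested genes (44.3% of the variance), CEBPβ-A replicate 3 scored 25.7 and the 5 remaining libraries −11.7 to −0.095. The 11 alveolar macrophage markers were all listed, with sums of 26627 to 36380 FPKM in CEBPβ and 28912 to 38180 in CEBPβ-A. Lyz2 made up most of that sum. Of the 11, 8 had a positive log2 fold change and 3 a negative one (median 0.11). Itgax was lower without overlap, at 505.5 to 516.6 FPKM in CEBPβ and 450.8 to 488.7 in CEBPβ-A (−0.11, limma adjusted p = 0.616). Mrc1 and Marco stood at −0.13 and −0.11. Car4 stood at 44.3 to 47.98 FPKM in CEBPβ and 54.1 to 76.1 in CEBPβ-A (log2 fold change 0.52), and Ear2 at 671 to 772 and 862 to 1008 (0.35), both without overlap (limma adjusted p = 0.588 for each). Of 7 lung epithelial markers 2 were listed. Scgb1a1, a club cell secretory protein, stood at 59.4 FPKM in CEBPβ-A replicate 3 and between 22.02 and 33.2 in the others. Krt8, too low to be tested, stood at 1.54 FPKM in CEBPβ-A replicate 3 and between 0.326 and 0.66 in the others. Of 6 neutrophil markers S100a8 was listed, at 199 to 251 FPKM in CEBPβ and 286 to 303 in CEBPβ-A. Of 6 monocyte and interstitial macrophage markers 5 were listed, with sums of 7.11 to 7.82 and 5.702 to 6.73 FPKM. Among the genes listed in the table used here were 0 of 6 lymphocyte, 0 of 4 endothelial, 0 of 4 fibroblast and 0 of 4 red cell markers. Depth is unknown, since the table gives no fragment totals, and no counting interval is given.

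Canonical ribosomal protein transcripts were abundant but far from equal. Their means over the 6 libraries ran from 11.2 FPKM (Rpl34) to 809.7 (Rplp1), a 72.1-fold range, with a median of 153 FPKM against 7.57 over all tested genes. By subunit the median gene stood at 171 FPKM (small) and 149 (large), so the subunits lay at like levels with wide overlap. The small subunit spanned a narrower range, 17.03-fold, from Rps18 at 34.9 FPKM to Rps3a1 at 595 FPKM. In all, 14 canonical genes were above 300 FPKM, 51 between 50 and 300 and 12 under 50. The order of the 77 was nearly fixed across libraries, with Spearman rho of levels between 0.988 and 0.997 over all library pairs, which share gene lengths and any bias of the counting.

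At the top of the large subunit stood Rplp1 (ENSMUSG00000007892.8, GRCm38 chr9:61913284-61914542, minus strand), an acidic protein of the stalk that recruits translation factors. Its levels were 729.8, 758 and 723 FPKM in CEBPβ replicates 1 to 3 and 769, 794 and 1085 in CEBPβ-A. All CEBPβ-A libraries were above all CEBPβ libraries, and CEBPβ-A replicate 3 was far above the rest (log2 fold change 0.24, SE 0.14, limma adjusted p = 0.591). Rpl8, a core protein near the site of peptide bond formation, stood at 526, 496 and 541 FPKM in CEBPβ and 533, 527 and 696 in CEBPβ-A. Here the groups overlapped, and only CEBPβ-A replicate 3 was above every CEBPβ library (log2 fold change 0.16, SE 0.12, adjusted p = 0.649). Rpl17, which lines the exit tunnel of the nascent chain, had 435, 489.5 and 447 FPKM against 472, 498 and 569. Rpl36 had 393, 393 and 407 FPKM against 406, 438 and 563. For both genes the groups overlapped by 1 library, and the limma adjusted p was 0.598 and 0.591.

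The small subunit was led by Rps3a1, Rps15, Rps29 and Rps4x. Rps3a1, a protein of the platform near the mRNA exit, had 586, 536 and 575 FPKM in CEBPβ and 601, 586 and 685 in CEBPβ-A, and CEBPβ-A replicate 2 lay just below CEBPβ replicate 1. Rps15, in the head of the subunit, had 457, 485 and 479 FPKM against 482, 501 and 651. Rps29, a zinc-binding protein of the head, had 419, 382 and 472 FPKM against 449, 427 and 608. In each of these 3 genes CEBPβ-A replicate 3 was the highest library and the groups overlapped. Rps4x, the X-linked member, had 351, 345 and 333 FPKM against 363, 355 and 417, without overlap. Their log2 fold changes were 0.14, 0.19, 0.21 and 0.14, with SE 0.091, 0.12, 0.15 and 0.086 (limma adjusted p from 0.602 to 0.627).

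**Figure D1:**
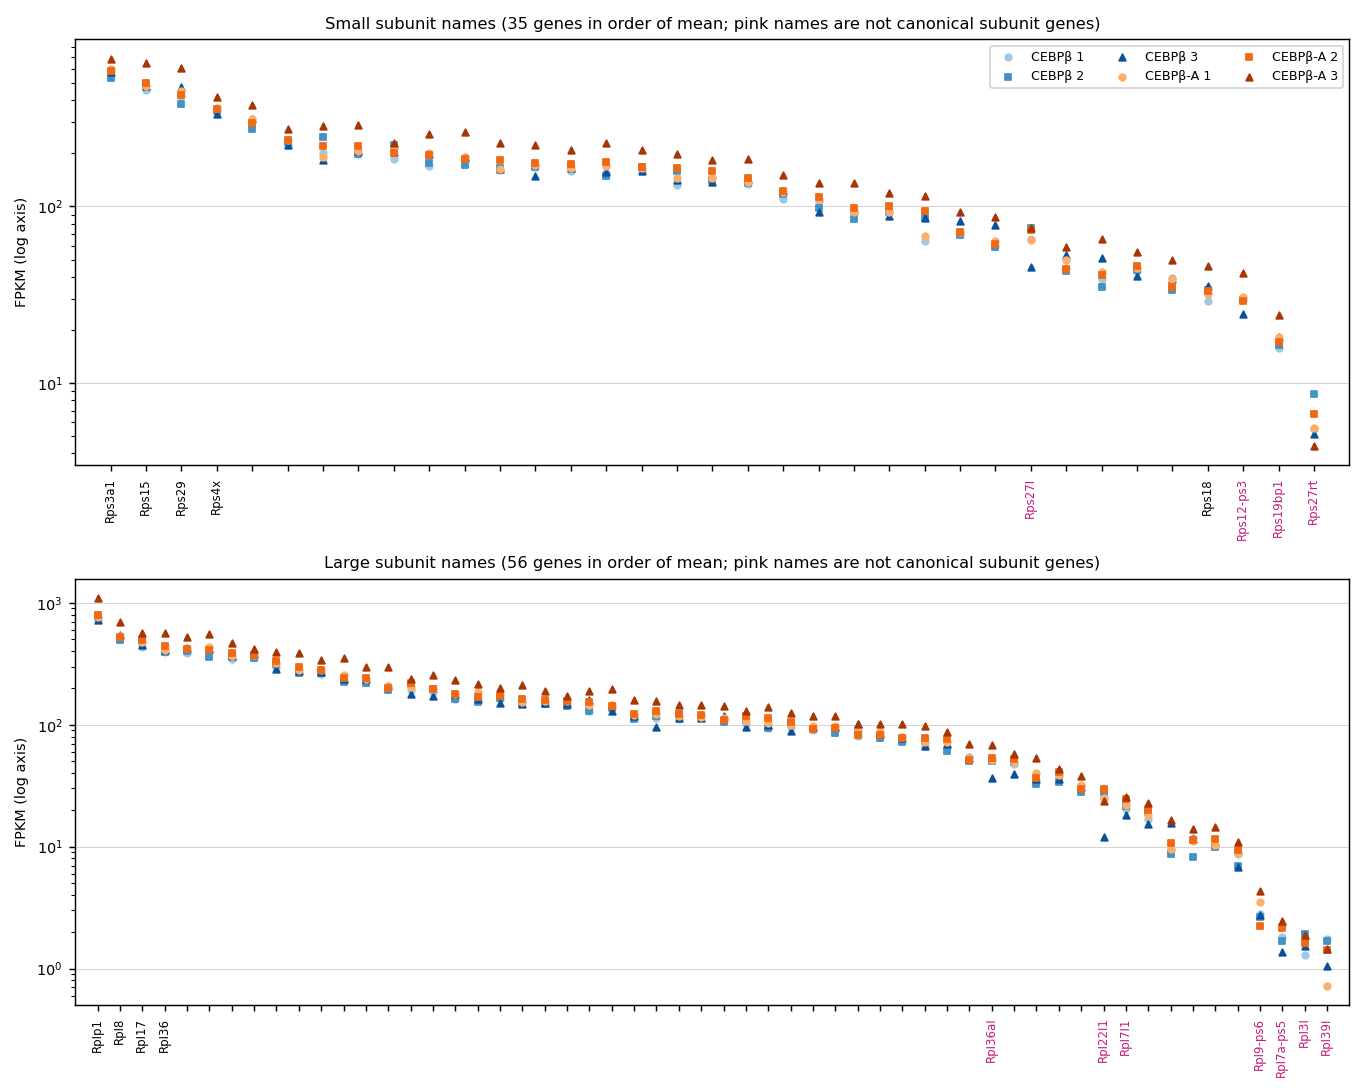
FPKM on a log axis of each of the 91 ribosomal protein genes in each of the 6 libraries, small subunit names above and large subunit names below, ordered by mean, with names shown for the highest and lowest genes and for paralogue-like names. CEBPβ-A replicate 3 (dark brown triangles) was the highest library for 86 of the 91 genes, and the other 5 libraries lay close together for most canonical genes.

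The lowest canonical small subunit gene was Rps18, a head protein that contacts the large subunit. It had 29.2, 33.6 and 35.6 FPKM in CEBPβ and 32.1, 33.1 and 45.9 in CEBPβ-A. In GENCODE M21, a median of 35.8% of a canonical gene's own stretches of 50 bases also occurred in transcripts of other genes. For Rps18 the share was 79.4%, and for Rpl34, the lowest canonical gene of both subunits, 10.97%. It exceeded 50% for 21 canonical genes, with Rpl36a highest at 85.5%. How the authors divided reads among such copies is not stated, so levels of these genes are uncertain. Across the 77 genes, level and this share had a Spearman rho of 0.287 and level and transcript length 0.0018.

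No ribosomal protein gene passed the test between the groups. Limma called 0 of 91 at an adjusted p under 0.05 (lowest adjusted p = 0.588), where 0.052% of all 9617 tested genes were called in either direction and 0.0208% upward. At an unadjusted p under 0.05 there were 11, each higher in CEBPβ-A, where 8.18% of tested genes passed in either direction and 3.76% upward. Of the 91, 89 had a positive log2 fold change, where 46.6% of tested genes did. The groups did not overlap, with CEBPβ-A higher, for 30 of 91 (32.97%), where 7.89% of tested genes did, and with CEBPβ-A lower for 0 of 91, where 8.86% did. The median log2 fold change was 0.19 for the members and −0.013 for all tested genes. It was 0.11 after quantile normalization and near 0, by construction, when libraries were levelled on the median ribosomal protein gene. Ribosomal protein genes vary together between libraries, so these counts do not stand for as many separate measurements.

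CEBPβ-A replicate 3 set more of the size of this difference than of its sign. On the log2(FPKM + 1) scale, the median canonical gene lay 0.067 above the CEBPβ mean in CEBPβ-A replicate 1, 0.085 in replicate 2 and 0.40 in replicate 3, against −0.0074, −0.017 and 0.033 in the 3 CEBPβ libraries. Replicate 3 was the highest library for 76 of 77 canonical genes, where it was so for 25.4% of tested genes. The exception was Rpl3. Without CEBPβ-A replicate 3 the median over the 91 was 0.085, and 81 of 91 were positive (50.4% of tested genes were). In that fit 4 had an unadjusted limma p under 0.05 (5.34% of tested genes did), a share of members no larger than that of all genes. The groups still did not overlap upward for 30 of 91, where 11.2% of tested genes did so without that library. Summed FPKM over all listed genes was 313215 in CEBPβ-A replicate 3 and 278907 to 289761 in the other 5 libraries. The main fit used no scaling between libraries, and no alternative scaled to this sum. Upper-quartile and median-of-ratios scaling gave member medians of 0.195 and 0.21. The share of summed FPKM held by the 91 genes was 4.95%, 4.99% and 4.87% in CEBPβ and 5.07%, 5.14% and 5.95% in CEBPβ-A replicates 1 to 3. In these bulk samples more cells of a type and more RNA per cell cannot be told apart. Scgb1a1 and the low gene Krt8 were also highest in CEBPβ-A replicate 3. S100a8, Car4 and Ear2 were higher in each of the 3 CEBPβ-A libraries than in any CEBPβ library. Itgax was lower in each of them, and of the 11 alveolar macrophage markers 8 were positive and 3 negative. The part of these genes in the result was not tested.

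**Figure D2:**
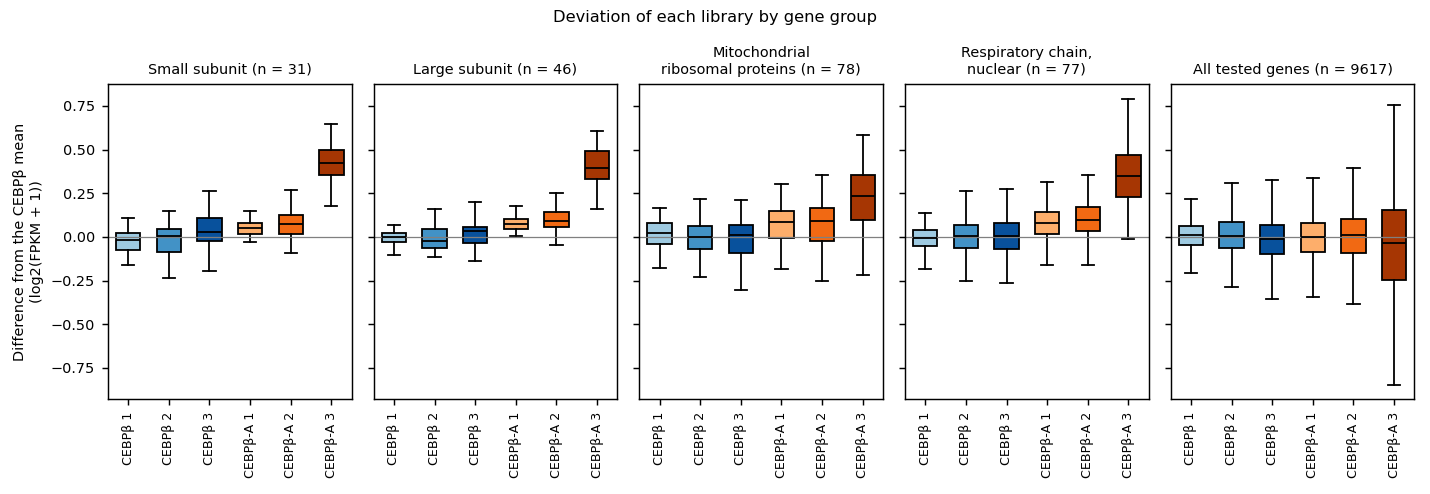
Difference of each library from the CEBPβ mean, on the log2(FPKM + 1) scale, for canonical small and large subunit genes, 2 mitochondrial gene groups and all tested genes. Boxes span the quartiles, with the median as a line and whiskers to 1.5 times the quartile range, and points beyond them are not drawn. The medians of CEBPβ-A replicate 3 lie at 0.43 and 0.40 for the subunits and at −0.038 for all tested genes.

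Small and large subunit genes moved side by side. Their canonical medians were 0.43 and 0.40 in CEBPβ-A replicate 3, 0.075 and 0.088 in replicate 2, and 0.052 and 0.074 in replicate 1. As median log2 fold changes these gave 0.19 (31 small) and 0.19 (46 large), and without CEBPβ-A replicate 3, 0.053 and 0.087. The groups did not overlap for 8 of 31 small (25.8%) and 18 of 46 large (39.1%) canonical genes, always with CEBPβ-A higher. Over all tested genes 7.89% did not overlap with CEBPβ-A higher and 8.86% with CEBPβ-A lower. Of the FPKM held by the 91 genes, small subunit names took 39.1%, 39.2% and 39.3% in CEBPβ and 38.8%, 38.8% and 38.9% in CEBPβ-A replicates 1 to 3. The mean was 39.2% ± 0.13 and 38.9% ± 0.065 (SD, n = 3 each), so the balance of the subunits differed by 0.32 percentage points while the level of both shifted. This difference is a description of a sum over members and carries no test.

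Among canonical small subunit genes the smallest p belonged to Rps26, Rps12, Rps19 and Rps14. Rps26 (ENSMUSG00000025362.6, GRCm38 chr10:128624534-128626747, minus strand), at the mRNA exit channel, had 155, 149 and 156 FPKM in CEBPβ and 170.0, 178 and 227 in CEBPβ-A. The CEBPβ libraries were tightly grouped and all below CEBPβ-A (153 ± 3.96 against 192 ± 31.0, SD, n = 3; log2 fold change 0.31, SE 0.11, limma adjusted p = 0.588; 0.18 without CEBPβ-A replicate 3). Rps12, in the beak of the small subunit, had 107, 98.6 and 93.5 FPKM against 110.2, 114 and 136, also without overlap (log2 fold change 0.26, SE 0.10). Rps19, a gene mutated in Diamond-Blackfan anaemia in humans, had 42.9, 43.9 and 40.3 FPKM against 44.996, 46.2 and 55.4, without overlap (0.197, SE 0.095). Rps14, lost in a human chromosome deletion syndrome with anaemia, had 169.97, 176 and 199 FPKM against 201, 195.4 and 258. For Rps14 the groups overlapped (0.25, SE 0.12). All 4 had a limma adjusted p of 0.588.

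In the large subunit, 3 of the 4 smallest p were those of genes with pseudogene-style names. Rpl10-ps3 had 65.9, 61.2 and 69.2 FPKM against 72.8, 76.0 and 87.8. Rpl36a-ps1 had 8.76, 6.92 and 6.79 FPKM against 8.90, 9.42 and 11.01, and Rpl7a-ps5 1.799, 1.695 and 1.37 against 2.28, 2.14 and 2.48. None of these 3 overlapped between groups, and their log2 fold changes of 0.26, 0.35 and 0.33 had SE 0.092, 0.12 and 0.10 (limma adjusted p = 0.588 for each). Rpl10-ps3 shared 96.1% of its stretches of 50 bases with other genes and Rpl36a-ps1 65.0%, so their reads cannot be separated with certainty from those of other genes. For Rpl7a-ps5 no such share was available. The remaining pseudogene-style names lay beside them: Rps12-ps3 at 24.5 to 29.7 FPKM in CEBPβ and 29.1 to 42.2 in CEBPβ-A, with 100% of its stretches shared, and Rpl9-ps6 at 2.63 to 2.79 and 2.24 to 4.33. Rpl27-ps3 had the smallest log2 fold change of the 6, at 0.12, and stood at −0.10 without CEBPβ-A replicate 3. At the other end of the canonical genes was Rpl39, a small protein of the exit tunnel named after its values were seen. It had 114, 119 and 95.6 FPKM against 123, 130.2 and 156, without overlap (log2 fold change 0.31, SE 0.12, limma adjusted p = 0.588).

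**Figure D3:**
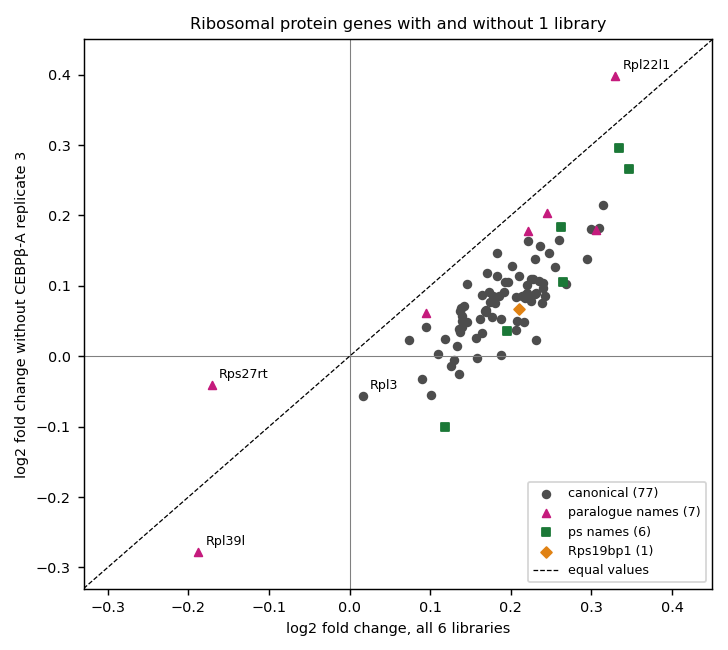
Log2 fold change of each of the 91 genes with all 6 libraries (x axis) and without CEBPβ-A replicate 3 (y axis), with the line of equal values. All 77 canonical genes lie below that line, at medians of 0.19 and 0.083, while Rpl22l1 lies above it at 0.33 and 0.40.

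The smallest canonical log2 fold change was that of Rpl3, named after its values were seen. Rpl3 (GRCm38 chr15:80077794-80091868, minus strand), a core protein near the site of peptide bond formation, had 81.4, 87.4 and 101.8 FPKM in CEBPβ and 90.9, 82.0 and 100.5 in CEBPβ-A. Its groups overlapped fully, its highest library was CEBPβ replicate 3, and its log2 fold change of 0.016 had a limma SE of 0.11 (adjusted p = 0.963). When each library was shifted so that the median ribosomal protein gene was level, a scaling chosen after seeing the data, Rpl3 stood at −0.18 (SE 0.11, limma adjusted p = 0.425) relative to the other genes, and 0 of 91 members passed (0.0312% of tested genes did; 0 members had an unadjusted p under 0.05). No canonical gene was thus shown to leave the common pattern. The canonical genes of widest spread over the 6 libraries, also named after the fact, were Rps2 and Rps25, whose groups overlapped. Rps2, near the mRNA entry, had 39.0, 34.9 and 51.4 FPKM against 42.8, 41.0 and 65.01, and Rps25 63.9, 86.3 and 86.4 against 68.2, 94.3 and 114.

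The paralogue-named genes are compared here with their partners per length. CEBPβ-A replicate 3 was the highest library for 3 of the 7. Rpl22l1, which in mouse cells is held down by Rpl22 and can replace it, had 25.1, 28.1 and 12.1 FPKM in CEBPβ and 25.1, 29.8 and 23.6 in CEBPβ-A. CEBPβ replicate 3 stood far below the other 5 libraries, and CEBPβ-A replicate 3 was not the highest. Its partner Rpl22, which binds RNA and is dispensable for viability in mice, had 37.6, 34.1 and 35.9 FPKM against 38.6, 41.1 and 43.0, without overlap (log2 fold change 0.18, SE 0.076, limma adjusted p = 0.588). Rpl22l1 thus stood at 66.7%, 82.4% and 33.6% of Rpl22 in CEBPβ and 65.0%, 72.5% and 54.9% in CEBPβ-A. Its log2 fold change of 0.33 (limma SE 0.28, adjusted p = 0.675) became −0.029 without CEBPβ replicate 3.

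Rps27l, a p53 target in human and mouse cells, showed the same low library. It had 65.7, 75.02 and 45.5 FPKM in CEBPβ and 64.7, 73.3 and 75.5 in CEBPβ-A, or 28.1% to 45.3% and 33.2% to 39.97% of Rps27, with overlap. Rps27 itself had 161, 166 and 162 FPKM against 164, 183 and 228. Rpl36al, a copy of Rpl36a, had 52.2, 50.6 and 36.8 FPKM against 50.99, 53.4 and 68.2 and stood near its partner's level (93.3% to 111% of Rpl36a in CEBPβ, 103% to 119% in CEBPβ-A). CEBPβ replicate 3 lay below the CEBPβ mean for 7 of 7 paralogue-named genes and above it for 50 of 77 canonical genes. It was the lowest of the 6 libraries for 4 of the 7 and for 22 of the 77. Of all 9617 tested genes it lay above that mean for 4510 and was the lowest library for 1735.

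Rpl7l1, whose product resembles Rpl7, was the 1 paralogue-named gene whose groups did not overlap upward, with 20.3, 21.7 and 18.3 FPKM in CEBPβ and 21.9, 24.7 and 25.4 in CEBPβ-A (log2 fold change 0.25, SE 0.094, limma adjusted p = 0.588). Rps27rt, a retrogene copy of Rps27, had 5.51, 8.65 and 5.18 FPKM against 5.55, 6.68 and 4.41 (−0.17, SE 0.196). It shares 91.1% of its stretches of 50 bases with Rps27, and its level is uncertain. Rpl3l, a muscle form of Rpl3, had 1.29, 1.93 and 1.53 FPKM against 1.75, 1.62 and 1.88, and overlapped fully. Rpl39l, enriched in testis, had 1.76, 1.67 and 1.05 FPKM against 0.725, 1.41 and 1.46, with overlap. Both low paralogues thus stood near 1 to 2% of their partners, where log2(FPKM + 1) understates changes.

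Ratios of the 7 paralogue-named genes to their partners were tested between groups. Rpl39l was the 1 pair whose groups did not overlap, at 1.35% ± 0.23 of Rpl39 in CEBPβ and 0.869% ± 0.25 in CEBPβ-A (SD, n = 3; exact two-sided permutation p = 0.1, the smallest that 3 against 3 allows, and 0.7 adjusted over 7 pairs). For the other 6 the exact permutation p ran from 0.4 to 1. This exact test cannot reach 0.05 with 3 against 3, and no other test of the ratios was run. Rps19bp1, whose product binds Rps19, had 15.8, 16.5 and 18.3 FPKM against 18.2, 17.2 and 24.2, with overlap (log2 fold change 0.21, SE 0.13, limma adjusted p = 0.602).

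**Figure D4:**
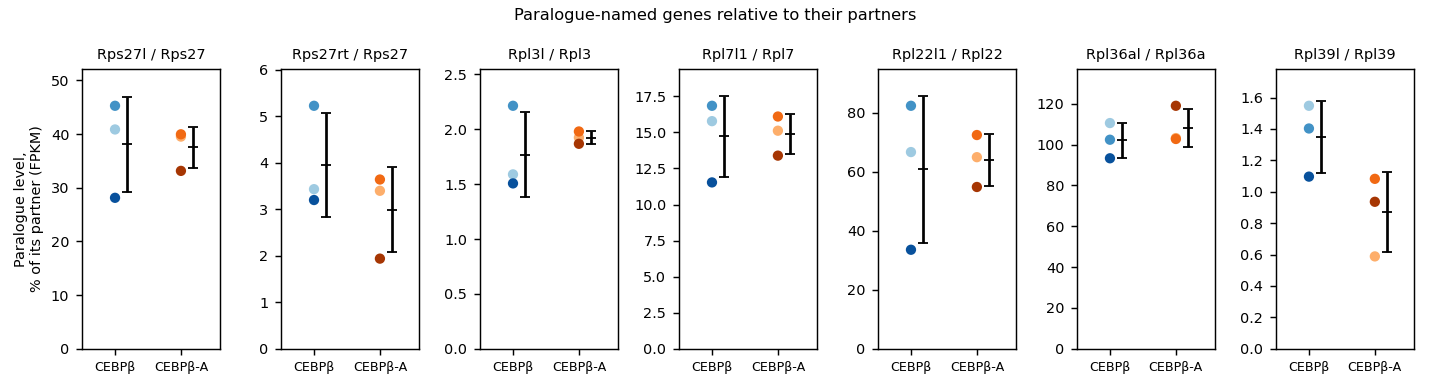
Level of each of 7 paralogue-named genes as a percentage of its partner's FPKM in each library, with the mean and SD of each group (n = 3) as bars. Rpl22l1 and Rps27l have their lowest ratio in CEBPβ replicate 3 (dark blue), at 33.6% and 28.1%.

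Transcript length moved with the difference. Canonical transcripts had a median of 711.5 bases against 2087.5 over all tested genes. In CEBPβ-A replicate 3, levels relative to the CEBPβ mean were lower for longer transcripts over 9570 tested genes with a length (Spearman rho −0.474, across genes, which are not independent replicates). In the other libraries this rho was 0.150, 0.088 and −0.17 (CEBPβ replicates 1 to 3) and −0.184 and −0.246 (CEBPβ-A replicates 1 and 2). Among the 77 canonical genes, log2 fold change and length had a rho of −0.499. Between 500 and 750 bases, the 34 members had a median log2 fold change of 0.196 and 748 other genes 0.068. Between 1000 and 1500 bases, 12 members had 0.17 and 1380 other genes 0.063. With the length trend of each library removed, the median over 89 members with a length was 0.13, 86 were positive and 0 passed. Over all 9570 genes of that fit the median was 0.0042, 4906 were positive and 7 passed.

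**Figure D5:**
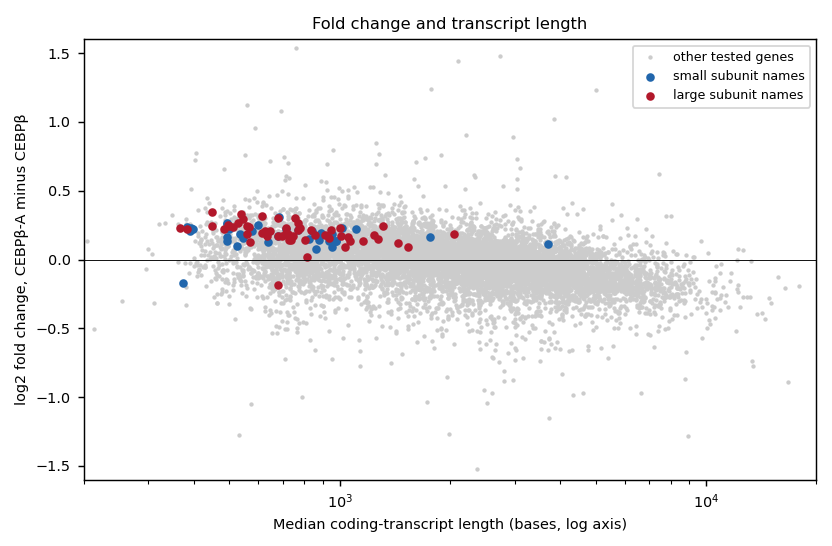
Log2 fold change against the median length of a gene's coding transcripts (GENCODE M21, log axis) for tested genes, with small and large subunit names coloured; 1 gene lies outside the axes. The 89 members with a length are drawn. Most sit among short transcripts, with Rps20 the longest at 3706 bases, and all but 2 lie above 0.

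Against the 2 gene groups most like them, the ribosomal proteins shared the direction. The 78 mitochondrial ribosomal protein genes had a median log2 fold change of 0.13 (69 positive, 0 passed) and 77 nuclear respiratory chain genes 0.18 (72 positive, 0 passed). In CEBPβ-A replicate 3 their medians lay 0.24 and 0.35 above the CEBPβ mean, and without it the fold changes were 0.077 and 0.0903. The difference between these groups and the cytosolic ribosomal proteins was not tested.

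Ribosomal proteins with names outside the rule lay with the members. Rack1, a scaffold on the small subunit, and Fau, made as a fusion to a ubiquitin-like protein, had log2 fold changes of 0.20 and 0.18, and 0 genes of this list passed. Fau had 433, 380.2 and 492 FPKM against 459, 423 and 610.1, and the CEBPβ-A replicate 3 value was again the highest. Of 15 listed elongation factors and other TOP messengers, 12 were positive and 0 passed (median 0.10, and 0.038 without CEBPβ-A replicate 3). Npm1, a nucleolar chaperone of ribosome assembly, had 92.6, 92.9 and 86.2 FPKM against 108, 105 and 107, without overlap and without a high replicate 3 (log2 fold change 0.24, SE 0.067, limma adjusted p = 0.588). Btf3, Tpt1 and Naca had 0.16, 0.19 and 0.17.

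Genes that build or control the ribosome had medians nearer 0. Of 37 ribosome biogenesis factors 25 were positive and 0 passed (median 0.0601), with Nhp2 and Nop10, proteins of the particles that convert uridine to pseudouridine, at 0.33 and 0.40, and Sbds, which frees the large subunit for use, at 0.24. Sbds had 18.5, 16.5 and 18.4 FPKM in CEBPβ and 21.3, 20.6 and 21.5 in CEBPβ-A, without overlap, and the nucleolar GTPase Gnl3 had a log2 fold change of 0.22. Of 14 RNA polymerase I genes 5 were positive (median −0.012), with the shared subunits Polr1d and Polr1c at 0.23 and 0.24 and the largest subunit Polr1a at −0.17. Polr2e, a subunit common to the nuclear RNA polymerases, stood at 0.14. Of 20 tested mTORC1 and S6 kinase genes 6 were positive and 14 negative (median −0.063, and 0.0057 without CEBPβ-A replicate 3). Rps6ka3, a kinase of Rps6, stood at −0.38, the kinase Mtor at −0.24, its inhibitor Tsc1 at −0.23 and its partner Rptor at −0.16. In each of these lists 0 passed.

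The remaining lists were short. Of 12 listed genes of ribosome rescue and hibernation 6 were positive (median −0.0202), with the rescue factor Pelo at 0.17, the hibernation factor Ccdc124 at 0.25, the helicase Ascc3 at −0.29 and Gtpbp1 at −0.13. Of 11 chaperones and importers of ribosomal proteins 7 were positive (median 0.019), with Rrp8, a nucleolar methyltransferase, at 0.23, Aamp at 0.17, Ipo7 at −0.15 and Ipo5 at −0.049. Of 7 listed p53 response genes, which free ribosomal proteins can raise through Mdm2, 2 were positive (median −0.051), with Sesn1 at −0.17, Zmat3 at −0.14, Ccng1 at −0.11 and Mdm2 at −0.051. These are log2 fold changes, and 0 genes of the 3 lists passed.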

How the data were processed

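RNA of 6 libraries (3 per group) was analysed from 1 table of FPKM values that the authors deposited, per the file headers. Its columns were matched to samples by the samples' descriptions. Per the submitters' processing notes, coordinates are on GRCm38. For the aligner, the quantifier and the treatment of multi-mapped reads, no source used here gives a name. The 9617 of 10539 genes whose mean reached 1 FPKM were analysed as log2(FPKM + 1), a scale that understates changes of low genes. Limma (version 3.58.1, R 4.3.3) was fitted to all of them with an intensity trend, CEBPβ-A minus CEBPβ, without covariates or scaling between libraries. It was tested on simulated data whose shifts were larger than any member's log2 fold change and whose genes varied independently. That test does not show whether shifts of the members' size would be found. Tests were two-sided, with Benjamini-Hochberg adjustment over all tested genes (threshold 0.05). Paralogue ratios were compared by an exact permutation test.

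Members and lists were chosen with earlier results of these data known. In each subunit the text names the 4 genes of highest and of lowest level and of smallest p, besides the paralogue-named and binding-protein genes, and in other lists up to 4 by p. Some genes that this rule picks are not reported here. Other members named were chosen after their values were seen. Transcript lengths (median over coding transcripts) and stretches of 50 bases came from GENCODE M21, which held all 91 member IDs. Alternatives were pseudocounts, filters, scalings, variance priors, the replicate block, length, left-out libraries, the canonical genes alone and 3 other denominators or memberships for the FPKM share. A levelling on the median ribosomal protein gene was chosen after seeing the data.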

Additional observations from a re-analysis of the deposited data

How the results depend on the processing

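No ribosomal protein gene passed in any of the 18 alternatives to the fit, where the lowest adjusted p of a member ran from 0.372 (replicate block) to 0.893 (without CEBPβ-A replicate 3). The median log2 fold change over the members stayed positive in the alternatives fixed in the plan, from 0.085 without CEBPβ-A replicate 3 to 0.26 without CEBPβ-A replicate 1, with 0.11 after quantile normalization. After levelling on the median ribosomal protein gene, a scaling that sets it near 0 by construction and lowers the median of all genes to −0.21, it was 5.2e-04, with −0.0044 for small and 0.0061 for large subunit names. The share of summed FPKM was 0.45 percentage points higher in CEBPβ-A and 0.17 without CEBPβ-A replicate 3.

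Over all genes the count of 5 past the threshold became 0 at a mean FPKM of at least 5, 2 after quantile normalization, 1 with the replicate block and 3 after the levelling, and lay between 1 and 9 with single libraries left out. The causes were not tested. Of 481 refits of 27 named members, 471 kept direction and side of the threshold and 10 reversed. The lowest limma adjusted p of a named member in these refits was 0.372, so keeping the side of the threshold says little. Rpl17 (−0.029), Rpl3l (−0.098), Rpl8 (−0.036), Rps15 (−0.0044), Rps18 (−0.035), Rps3a1 (−0.055) and Rps4x (−0.055) reversed after the levelling. That scaling centres the members near 0 and left 46 of 91 positive, so such reversals follow from its construction. With single libraries left out, Rpl22l1 ran from −0.029 (without CEBPβ replicate 3) to 0.55, Rps18 from −0.0028 (without CEBPβ-A replicate 3) to 0.25 and Rps27rt from −0.29 to 0.031 (without CEBPβ replicate 2).

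Same-numbered libraries deviated together with r = 0.0993, 0.247 and 0.259 for numbers 1, 2 and 3 over all tested genes. Differently numbered libraries had r from −0.245 to 0.087. The main fit did not take the numbers as pairs, as the first r did not reach 0.1. Over the 91 members alone the same-number r were 0.174, 0.662 and 0.587. Every library correlated best with its own number, over all tested genes and over the members, a hint of pairing from the data and not the design. The main fit may thus ignore a pairing. With the replicate block 0 members passed, 20 in place of 11 had an unadjusted p under 0.05, and the median over the 91 was 0.19. The share of all tested genes with such a p under the block is not given here. Whether the rise was particular to the members thus cannot be told. Without known depth, the spread of 3 libraries is the only measure of precision.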
